A study of Mus musculus with 6 samples.

Results

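The genes described here are those of autophagy, the process by which a cell encloses part of its own content in a membrane and delivers it to the lysosome. They were given as 33 gene symbols, and 31 of these had a probe set on the array, out of 18194 genes measured in all. Each gene was read from its probe set (a group of probes for 1 transcript) with the highest mean over the 6 arrays, a choice that used no difference between groups. No probe set was listed under Optn or Bnip3l alone, and both were not analysed here. All 31 measured genes passed the filter on low signal, among 13645 genes tested. Values are log2 signals from RMA, a method that includes a quantile normalization of probe values.

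The cells were regulatory T cells (Treg cells) sorted by fluorescence from C57BL/6 mice, and RNA was hybridised to 6 Affymetrix arrays. There were 2 arrays of wild-type cells (WT) and 2 of Foxo1 knockout cells (Foxo1KO). There was 1 array of cells from mice with constitutively active Foxo1 (Foxo1AAA), and 1 of cells from knockout mice that also carried it (Foxo1KO/Foxo1AAA). The sources used here do not give ages, sexes, the promoter or Cre behind each allele, or whether mice were pooled, so p-values measure only the spread between these arrays. The study asked what Foxo1 loss changes in these cells and whether the active form brings expression back in the knockout.

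Autophagy starts when the ULK1 kinase complex is activated, and a lipid kinase complex built around Beclin 1 then marks the membrane that will grow. WIPI proteins read that mark, ATG9 supplies membrane, and a conjugation cascade led by ATG7 couples proteins of the Atg8 family (LC3 and GABARAP) to the membrane lipid. Cargo receptors such as p62 and BNIP3 tie cargo to the Atg8 proteins, and fusion with lysosomes, whose membrane is rich in LAMP1 and LAMP2, completes the process. FOXO factors are known to induce several of these genes in muscle, and autophagy is needed for Treg cells to persist and stay stable.

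Promoters were read from RefSeq (build GRCm38.p6), from 250 bases before to 50 after the transcript start. Entries were found for 25 of the 33 symbols, with 28 promoters among them. Fbxo32, Pik3c3, Becn1, Map1lc3a, Atg12, Atg16l1, Rb1cc1 and Bnip3l had no entry, so their promoters were not searched. The forkhead core TAAACA stood in 4 of the 28 (Ambra1, Gabarapl1, Wdr45 and Wipi2) and in 13.4% of all 32851 promoters. The longer form GTAAACA, which contains that core, stood in 0 of the 28 and in 3.65% of all. The E-box CACGTG, the core of the sites bound by TFEB and by MYC, stood in 6 of the 28 (Atg14, Atg3, Atg5, Atg7, Bnip3 and Lamp1) and in 7.15% of all. Both strands were searched, and a match is a description of the letters and no evidence of binding. 3 promoters are shown with the motif in capitals. Gabarapl1 and Wipi2 hold the forkhead core and had a probe set called lower in the knockout. Bnip3, a known Foxo-induced gene, holds the E-box but not the forkhead core, and its signal was higher there. Ambra1 and Wdr45 also hold the forkhead core, and none of their tested probe sets was called in the knockout (differences of -0.45 to -0.02 for Ambra1 and of 0.05 and 0.18 for Wdr45). Of the other genes with the E-box, Atg7 was called higher in the knockout (0.93). Atg14 (-0.10), Atg3 (-0.03), Atg5 (-0.04) and Lamp1 (-0.10) were not called there. The Gabarapl1 window is chr6:129532942-129533241 on the plus strand, with the motif starting 94 bases before the start. The Wipi2 window is chr5:142629334-142629633 on the plus strand, with the motif starting 5 bases before the start. The Bnip3 window is chr7:138909457-138909756 on the minus strand, with the E-box starting 108 bases before the start.
Gabarapl1: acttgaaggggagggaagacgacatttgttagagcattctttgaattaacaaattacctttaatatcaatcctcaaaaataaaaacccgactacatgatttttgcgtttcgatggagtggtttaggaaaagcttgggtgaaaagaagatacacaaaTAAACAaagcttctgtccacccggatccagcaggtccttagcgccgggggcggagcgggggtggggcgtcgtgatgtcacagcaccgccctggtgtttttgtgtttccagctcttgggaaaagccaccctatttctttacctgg
Wipi2: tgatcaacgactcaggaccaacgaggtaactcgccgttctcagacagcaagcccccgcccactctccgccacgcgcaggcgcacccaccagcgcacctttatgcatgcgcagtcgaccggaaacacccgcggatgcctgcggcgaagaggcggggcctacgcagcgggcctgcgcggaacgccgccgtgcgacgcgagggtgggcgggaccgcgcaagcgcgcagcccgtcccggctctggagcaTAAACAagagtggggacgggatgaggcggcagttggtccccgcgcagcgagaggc
Bnip3: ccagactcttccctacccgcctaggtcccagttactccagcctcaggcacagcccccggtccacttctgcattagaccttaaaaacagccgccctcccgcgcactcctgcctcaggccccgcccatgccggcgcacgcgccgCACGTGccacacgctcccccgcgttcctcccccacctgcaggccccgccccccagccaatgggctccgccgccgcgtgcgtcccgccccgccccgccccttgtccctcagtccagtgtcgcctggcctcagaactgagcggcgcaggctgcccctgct

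Some facts of the arrays bear on every result. The Foxo1 probe set with the highest signal read 11.03 and 11.35 in WT, 10.87 and 10.65 in Foxo1KO, 10.71 in Foxo1AAA and 9.66 in Foxo1KO/Foxo1AAA (Foxo1KO minus WT -0.43, SE 0.13, adjusted p = 0.0448). No source used here gives the deleted part of Foxo1, so the remaining signal does not measure the deletion. Il7r, Klf2, Ccr7 and S1pr1, known Foxo1 targets in T cells, were all 4 lower in Foxo1KO and all 4 higher in Foxo1KO/Foxo1AAA than in Foxo1KO. The 10 T and Treg cell markers averaged 11.09 to 11.30 on every array, but the only Foxp3 probe set read 5.10 to 5.58 and fell below the filter. Single markers differed: in Foxo1KO against WT, Cd4 was lower (-0.37), while Ctla4 (0.46) and Tnfrsf4 (0.32) were higher. In Foxo1KO/Foxo1AAA against Foxo1KO, Ikzf2 (-0.34) and Ikzf4 (-0.46) were lower. No other tested T or Treg cell marker was called in either comparison. The 8 myeloid markers averaged 6.58 and 6.91 in WT, 7.24 and 6.88 in Foxo1KO, 9.30 in Foxo1AAA and 9.60 in Foxo1KO/Foxo1AAA. All 7 of them that were tested were higher in Foxo1AAA than in WT and in Foxo1KO/Foxo1AAA than in Foxo1KO. For example, Csf1r, the macrophage growth factor receptor, read 8.36 and 8.93 in WT, 9.12 and 8.52 in Foxo1KO, 11.99 in Foxo1AAA and 12.38 in Foxo1KO/Foxo1AAA. The 6 measured B cell markers averaged 6.35 and 6.60 in WT, 6.86 and 6.33 in Foxo1KO, 7.53 in Foxo1AAA and 7.36 in Foxo1KO/Foxo1AAA. The median signal of the tested genes was higher on the Foxo1AAA and Foxo1KO/Foxo1AAA arrays: the difference of array medians was 0.17 for Foxo1AAA against WT, 0.17 for Foxo1KO/Foxo1AAA against Foxo1KO and 0.20 for Foxo1KO/Foxo1AAA against WT, but 0.03 for Foxo1KO against WT. Over all probe sets, in contrast, the medians of those arrays were lower (6.27 and 6.31, against 6.36 to 6.41 on the other 4). The upper quartile over all probe sets ran from 8.21 on Foxo1KO replicate 1 to 8.44 on Foxo1KO/Foxo1AAA, so the deposited distributions were not equal. Centring each array on its median of tested genes, one of the alternatives, lowers the differences of these arrays from the WT or Foxo1KO arrays by 0.17 to 0.20, although the median difference of single genes was -0.02 in Foxo1AAA against WT and in Foxo1KO/Foxo1AAA against Foxo1KO. Xist, the RNA that coats the inactive X chromosome, read 12.03 to 13.43 on the 4 WT and Foxo1KO arrays and 6.04 and 6.27 on the arrays with Foxo1AAA. The Y-linked Eif2s3y read 3.91 and 4.05 on replicate 1 of WT and Foxo1KO and 9.91 to 10.59 on the other 4 arrays. Replicate 2 of WT and of Foxo1KO thus carried both signals. Xist divided the arrays as Foxo1AAA did. In comparisons of arrays with and without Foxo1AAA, differences between the sexes therefore cannot be told apart from those of Foxo1AAA.

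Most autophagy genes, like most genes tested, were not called on their chosen probe sets in Treg cells without Foxo1. On other probe sets Gabarapl1 (-0.52), Nbr1 (-0.40) and Atg12 (0.31) were called, with 21.3% of all probe sets called. Each of these calls was lost in some alternatives. In Foxo1KO against WT, 3 of 31 genes rose (Atg7, Bnip3 and Lamp2) and 2 fell (Fbxo32 and Wipi2), that is 16.1% of the list against 21.8% of all genes tested (11.2% higher, 10.7% lower). A gene was called at an adjusted p under 0.05 in limma, two-sided and with Benjamini-Hochberg adjustment over all 13645 genes. The median difference over the 31 genes was -0.02, with 13 of them positive, and over all tested genes it was 0.03. The median absolute difference was 0.09 log2 units for the 31 genes and 0.15 for all genes tested. The other 26 differed by between -0.26 and 0.30, with adjusted p from 0.0603 to 0.976. All Foxo1KO values lay above all WT values for 6 of the 31, and below for 7, and 18 overlapped, while 60.2% of all tested genes did not overlap.

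**Figure D1:**
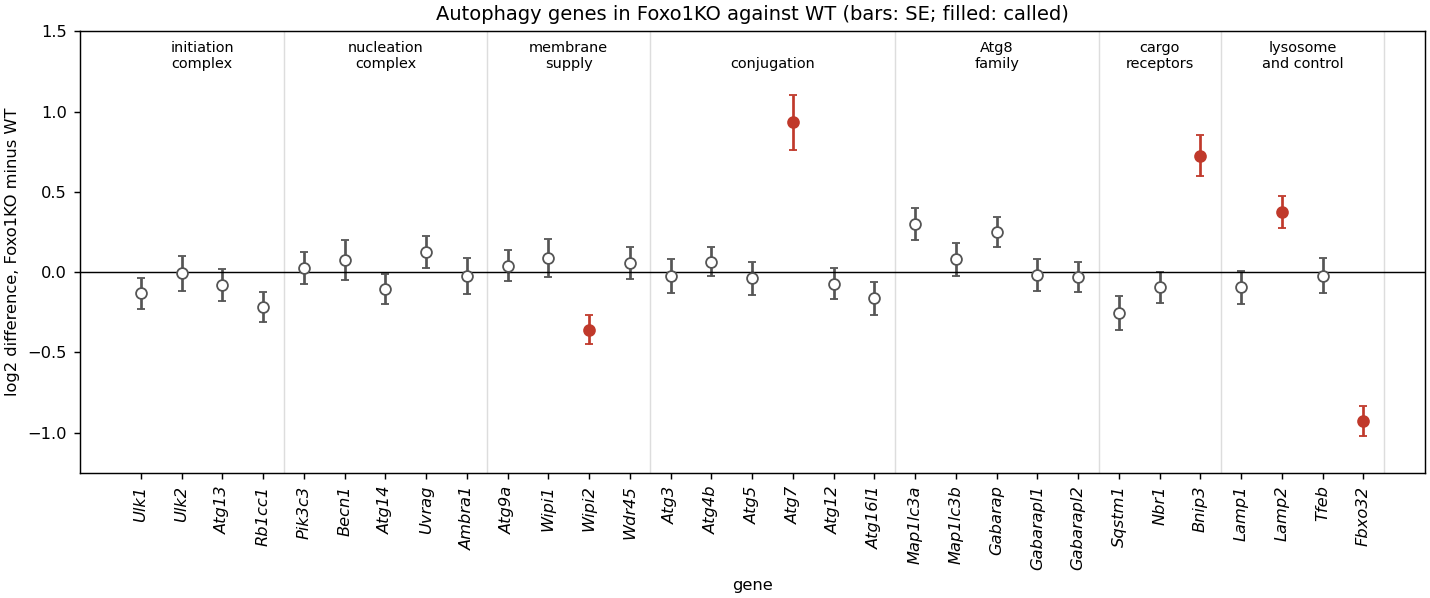
Difference in log2 signal between Foxo1KO (n = 2 arrays) and WT (n = 2) for the 31 autophagy genes, grouped by role, with bars for the SE of the limma fit and filled points for genes with an adjusted p under 0.05. 3 called genes lie above 0 (Atg7, Bnip3, Lamp2) and 2 below (Wipi2, Fbxo32), while the other 26 lie between -0.26 and 0.30.

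None of the 4 genes of the initiation complex was called in Foxo1KO against WT. Their differences were all negative, from -0.22 for Rb1cc1, the scaffold of the ULK1 complex, to -0.01 for Ulk2. Rb1cc1 read 9.97 and 9.90 in WT and 9.71 and 9.73 in Foxo1KO, without overlap, at an adjusted p of 0.140. None of the 5 genes of the lipid kinase complex (Pik3c3, Becn1, Atg14, Uvrag and Ambra1) was called either, with differences of -0.10 to 0.13.

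Among the 4 genes of membrane supply, Wipi2, whose protein binds the lipid mark and recruits the conjugation machinery, fell. It read 9.28 on both WT arrays, 8.92 and 8.91 on the Foxo1KO arrays, 8.97 in Foxo1AAA and 9.05 in Foxo1KO/Foxo1AAA. Both WT values lay above all 4 others. The Foxo1KO minus WT difference was -0.36 (SE 0.09, n = 2 and 2, adjusted p = 0.0216, 1.28-fold lower). The call was lost when any 1 of the 4 arrays was left out, at adjusted p of 0.0831 to 0.0876. The other 2 Wipi2 probe sets were also lower, by differences of -0.30 and -0.24, and neither was called (adjusted p = 0.0902 and 0.177 over the 24400 probe sets tested, of which 21.3% were called).

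In the conjugation machinery, Atg7 rose and the other 5 genes (Atg3, Atg4b, Atg5, Atg12 and Atg16l1) were not called. Atg7 encodes the E1-like enzyme that activates both Atg12 and the Atg8 proteins. Its values were 8.09 and 8.17 in WT, 8.76 and 9.37 in Foxo1KO, 7.69 in Foxo1AAA and 7.94 in Foxo1KO/Foxo1AAA. Both Foxo1KO arrays were the highest. The difference from WT was 0.93 (SE 0.17, n = 2 and 2, adjusted p = 0.00496, 1.91-fold). In a second Atg7 probe set, 1428612_at, the values were 7.33 and 7.64 in WT, 8.54 and 8.72 in Foxo1KO, 7.26 in Foxo1AAA and 7.49 in Foxo1KO/Foxo1AAA. Here the Foxo1KO arrays agreed more closely and stood 1.14 above WT (SE 0.13, adjusted p = 3.5e-04). The remaining tested one, 1428611_at, moved less, by 0.26 (SE 0.10, adjusted p = 0.110).

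None of the 5 Atg8 family genes was called on the chosen probe set in Foxo1KO. Map1lc3a read 8.36 and 8.21 in WT, 8.60 and 8.57 in Foxo1KO, 8.57 in Foxo1AAA and 8.55 in Foxo1KO/Foxo1AAA (Foxo1KO minus WT 0.30, SE 0.10, adjusted p = 0.0603). Gabarap read 11.07 and 11.01 in WT, 11.24 and 11.34 in Foxo1KO, 11.36 in Foxo1AAA and 11.37 in Foxo1KO/Foxo1AAA (0.25, SE 0.09, adjusted p = 0.102). In both genes the WT arrays were the lowest of the 6 without passing the test. Map1lc3a was called with the lowest 50% of genes left out (adjusted p = 0.0382) and after quantile normalization (0.36, adjusted p = 0.0261), and Gabarap with an intensity trend in the prior (adjusted p = 0.0418). Map1lc3b, whose LC3B protein is the usual marker of autophagosomes, read 12.16 and 11.98 in WT, 12.13 and 12.18 in Foxo1KO, 12.29 in Foxo1AAA and 12.23 in Foxo1KO/Foxo1AAA, with WT and Foxo1KO overlapping. Gabarapl2 read 10.99 and 10.92 in WT, 10.93 and 10.92 in Foxo1KO, and 11.15 on both arrays with Foxo1AAA, and again WT and Foxo1KO overlapped.

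Gabarapl1, a GABARAP relative that FOXO factors are known to induce in muscle, gave different answers on its 2 probe sets. On the brighter one, 1416419_s_at, it read 8.41 and 8.24 in WT, 8.33 and 8.28 in Foxo1KO, 8.59 in Foxo1AAA and 8.63 in Foxo1KO/Foxo1AAA, a Foxo1KO minus WT difference of -0.02 (SE 0.10, adjusted p = 0.917). The dimmer one, 1416418_at, read 6.06 and 5.93 in WT, 5.43 and 5.50 in Foxo1KO, 6.76 in Foxo1AAA and 6.65 in Foxo1KO/Foxo1AAA. On it the groups did not overlap: Foxo1KO was lowest and both arrays with Foxo1AAA were highest. It was 0.52 log2 units lower in Foxo1KO than in WT (difference -0.52, SE 0.10, adjusted p = 0.00663), and the call was just lost without Foxo1KO replicate 1 (adjusted p = 0.0504). It was 1.18 higher in Foxo1KO/Foxo1AAA than in Foxo1KO (SE 0.12, adjusted p = 2.4e-04) and 0.76 higher in Foxo1AAA than in WT (SE 0.12, adjusted p = 0.00332). Affymetrix gives the suffix s to probe sets whose probes match several transcripts. Which probe set follows the Gabarapl1 transcript was not tested.

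Of the 3 cargo receptors measured, Bnip3 rose. Its protein sits on the outer membrane of mitochondria and marks them for autophagy, and its transcript is known to respond to hypoxia as well as to FOXO factors. It read 8.03 and 8.33 in WT, 8.79 and 9.02 in Foxo1KO, 8.81 in Foxo1AAA and 8.89 in Foxo1KO/Foxo1AAA. The WT arrays lay below all 4 others, which lay close together. The difference of Foxo1KO from WT was 0.73 (SE 0.13, n = 2 and 2, adjusted p = 0.00397, 1.65-fold). Without Foxo1KO replicate 2 it remained called over genes but not over all probe sets (adjusted p = 0.0519). Sqstm1, which encodes p62, read 9.69 and 9.90 in WT and 9.49 and 9.60 in Foxo1KO, lower without overlap but not called (-0.26, SE 0.11, adjusted p = 0.135). Nbr1 was not called on this probe set.

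Of the lysosome and control genes, Lamp2 rose and Fbxo32 fell, while Lamp1 and Tfeb, the transcription factor of lysosome genes, were not called. Fbxo32 encodes atrogin-1, a ubiquitin ligase subunit known as a FOXO target in wasting muscle. It read 8.41 and 8.50 in WT, 7.52 on both Foxo1KO arrays, 8.57 in Foxo1AAA and 8.30 in Foxo1KO/Foxo1AAA. The Foxo1KO arrays stood apart below the other 4. The difference was -0.93 (SE 0.09, n = 2 and 2, adjusted p = 1.6e-04, 1.90-fold lower), the smallest adjusted p among the 31 genes. The other 2 Fbxo32 probe sets also fell, by differences of -0.78 (SE 0.12, adjusted p = 0.00191) and -0.47 (SE 0.10, adjusted p = 0.00851), the last of which was lost without Foxo1KO replicate 1 (adjusted p = 0.0543).

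Lamp2, a lysosome membrane protein needed for fusion with autophagosomes, read 10.96 and 10.83 in WT, 11.21 and 11.34 in Foxo1KO, 11.35 in Foxo1AAA and 11.45 in Foxo1KO/Foxo1AAA. The WT arrays were the lowest. The difference of Foxo1KO from WT was 0.38 (SE 0.10, n = 2 and 2, adjusted p = 0.0274, 1.30-fold). All 4 Lamp2 probe sets were called higher in Foxo1KO, with differences of 0.38 to 0.76. On the chosen probe set the call was lost without WT replicate 2, Foxo1KO replicate 1 or Foxo1KO replicate 2, at adjusted p of 0.146, 0.0545 and 0.141. Without Foxo1KO replicate 2 none of the other 3 was called either (adjusted p = 0.0555 to 0.171).

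For the called genes, no Foxo1KO value overlapped a WT value, so every pairing of arrays gives the same sign. The sign within replicate numbers is therefore no further test, and only the sizes are given. Replicate number also separates the WT and Foxo1KO arrays with and without Y-linked signal. For replicates 1 and 2 in turn, Foxo1KO minus WT was 0.67 and 1.20 for Atg7 and 0.77 and 0.68 for Bnip3. It was 0.25 and 0.50 for Lamp2, -0.36 and -0.36 for Wipi2, and -0.88 and -0.98 for Fbxo32. Other markers also moved with the knockout: all 5 measured proliferation markers were higher in Foxo1KO than in WT, with averages of 10.98 and 10.91 against 9.40 and 9.11. Of the myeloid markers 2 of 7 (Lyz2 and Cd68) and of the CD8 T and NK cell markers 2 of 5 (Eomes and Klrk1) were higher. Their part in the autophagy differences was not tested. In such bulk RNA, a change in the mix of cells and a change per cell cannot be told apart.

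**Figure D2:**
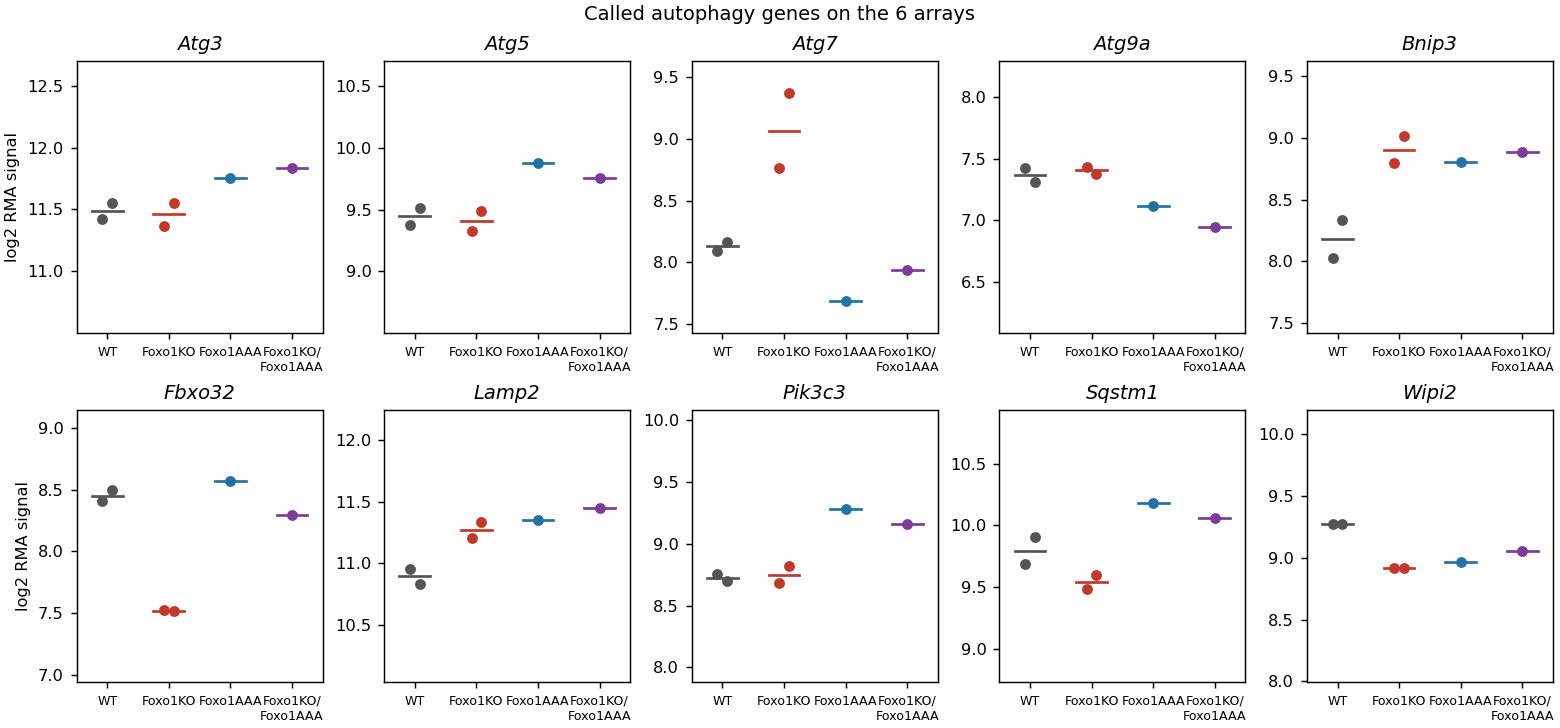
Log2 signal on each of the 6 arrays for the 10 autophagy genes called in at least 1 comparison; points are arrays, lines are group means, and every panel spans the same number of log2 units. Fbxo32 reads 7.52 on both Foxo1KO arrays against at least 8.30 elsewhere, Atg7 is highest in Foxo1KO, and Pik3c3, Atg5 and Sqstm1 are highest on the 2 arrays with Foxo1AAA.

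With active Foxo1 in the knockout, Atg7 was lower and Fbxo32 higher than in Foxo1KO. In Foxo1KO/Foxo1AAA against Foxo1KO, 4 of 31 genes were higher (Atg3, Fbxo32, Pik3c3 and Sqstm1) and 2 lower (Atg7 and Atg9a), that is 19.4% against 39.8% of all genes tested (19.6% higher, 20.2% lower). This comparison shares the Foxo1KO arrays with Foxo1KO against WT, so a high or low Foxo1KO array moves both, in opposite directions. It also has 1 array on one side, which was assumed to vary like the WT and Foxo1KO pairs. The median over the 31 genes was 0.09 and over all genes -0.02. With every array centred on its median the split was 1 higher (Fbxo32) and 4 lower (Atg7, Atg9a, Nbr1 and Wdr45). That step lowers the difference of every gene here by 0.17, and the share of all genes then called is not given. All 7 tested myeloid markers and 3 of 6 B cell markers rose here. The CD8 T and NK cell markers split, with Cd8b1 (0.92) and Klrk1 (0.40) higher and Cd8a (-0.63) and Eomes (-1.19) lower. The part of all these markers in the autophagy differences was not tested.

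Fbxo32 was 0.78 higher in Foxo1KO/Foxo1AAA than in Foxo1KO (SE 0.11, adjusted p = 0.00131, 1.71-fold), and 0.15 below WT without a call (difference -0.15, adjusted p = 0.332). The other 2 Fbxo32 probe sets were 0.24 and 0.23 higher and neither was called (adjusted p = 0.142 and 0.248, with 38.9% of all probe sets called). One of them, 1435265_at, remained below WT in Foxo1KO/Foxo1AAA (-0.55, SE 0.15, adjusted p = 0.0208, with 32.2% of all probe sets called), a call lost without WT replicate 1 (adjusted p = 0.0661). It read 8.17 and 7.90 in WT, 7.21 and 7.32 in Foxo1KO, 7.79 in Foxo1AAA and 7.49 in Foxo1KO/Foxo1AAA, so Foxo1KO/Foxo1AAA lay between Foxo1KO and WT.

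Atg7 was 1.13 lower in Foxo1KO/Foxo1AAA than in Foxo1KO (difference -1.13, SE 0.21, adjusted p = 0.00397, 2.19-fold lower), and it did not differ detectably from WT (-0.20, 95% interval of the difference -0.68 to 0.29, adjusted p = 0.514). Its other 2 tested probe sets were lower as well, by differences of -1.14 (adjusted p = 9.1e-04) and -0.38 (adjusted p = 0.0405), the last lost without Foxo1KO replicate 1 or 2 (adjusted p = 0.0641 and 0.121). Bnip3 showed no such difference: Foxo1KO/Foxo1AAA minus Foxo1KO was -0.02 (SE 0.16, 95% interval -0.38 to 0.34, adjusted p = 0.936), and it lay 0.71 above WT (SE 0.16, adjusted p = 0.0116). Lamp2 likewise stood 0.55 above WT in Foxo1KO/Foxo1AAA (SE 0.12, adjusted p = 0.0116) and 0.17 above Foxo1KO without a call (adjusted p = 0.294). Read from the brighter of its probe sets without a suffix, 1428094_at, it stood 0.20 above WT and was not called (adjusted p = 0.277). The other one without a suffix, 1416344_at, stood 0.45 above WT and was called, but in only 3 of 8 alternatives.

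The other 4 calls of this comparison were of genes not called in Foxo1KO against WT. Pik3c3, the catalytic subunit of the lipid kinase complex, read 8.75 and 8.70 in WT, 8.68 and 8.82 in Foxo1KO, 9.28 in Foxo1AAA and 9.16 in Foxo1KO/Foxo1AAA (Foxo1KO/Foxo1AAA minus Foxo1KO 0.41, SE 0.12, adjusted p = 0.0256). Sqstm1 read 10.18 in Foxo1AAA and 10.06 in Foxo1KO/Foxo1AAA, above all 4 other arrays (0.51, SE 0.13, adjusted p = 0.0149). Atg3, the E2-like enzyme of the cascade, read 11.42 and 11.55 in WT, 11.37 and 11.55 in Foxo1KO, 11.76 in Foxo1AAA and 11.84 in Foxo1KO/Foxo1AAA (0.38, SE 0.13, adjusted p = 0.0474). All 3 were highest on the arrays with Foxo1AAA. Atg9a, the membrane-supplying scramblase, went the other way, with 7.42 and 7.31 in WT, 7.44 and 7.38 in Foxo1KO, 7.12 in Foxo1AAA and 6.94 in Foxo1KO/Foxo1AAA (-0.46, SE 0.12, adjusted p = 0.0140).

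These 4 were less firm than Atg7 and Fbxo32, which were called in all 12 alternatives run for this comparison. Without Foxo1KO replicate 1, Pik3c3, Sqstm1, Atg3 and Atg9a lost the call, at adjusted p of 0.0991, 0.0655, 0.174 and 0.0550. With every array centred on its median, Pik3c3, Sqstm1 and Atg3 lost it (adjusted p = 0.113, 0.0725 and 0.222), with differences of 0.24, 0.34 and 0.20. The same 3 genes also lost it after quantile normalization of the 6 arrays, with differences of 0.21 for Pik3c3 and 0.35 for Sqstm1.

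Active Foxo1 by itself went with 4 higher genes and 0 lower. In Foxo1AAA against WT, Atg5, Bnip3, Lamp2 and Pik3c3 were higher, that is 12.9% against 27.5% of all genes tested (13.4% higher, 14.1% lower). The median was 0.14 over the 31 genes and -0.02 over all genes. With the arrays centred on their medians the split became 1 higher (Pik3c3) and 4 lower (Atg9a, Tfeb, Wdr45 and Wipi2). Such centring takes 0.17 off the difference of every gene, and the share of all genes then called is not given. Atg5, part of the complex that places Atg8 proteins on the membrane, read 9.38 and 9.51 in WT, 9.33 and 9.49 in Foxo1KO, 9.88 in Foxo1AAA and 9.76 in Foxo1KO/Foxo1AAA. WT and Foxo1KO overlapped, and both arrays with Foxo1AAA were higher (Foxo1AAA minus WT 0.43, SE 0.13, adjusted p = 0.0355). Pik3c3 differed by 0.56 (SE 0.12, adjusted p = 0.0108), Bnip3 by 0.63 (SE 0.16, adjusted p = 0.0201) and Lamp2 by 0.46 (SE 0.12, adjusted p = 0.0253). Pik3c3 was called in all 12 alternatives. After quantile normalization Atg5 and Bnip3 were not called, with differences of 0.31 and 0.51. Without WT replicate 1 Atg5 and Bnip3 were not called (adjusted p = 0.114 and 0.0534), and without WT replicate 2 Lamp2 was not (adjusted p = 0.0933). Lamp2 read from the brighter of its probe sets without a suffix, 1428094_at, differed by 0.03 (adjusted p = 0.891). The other one without a suffix, 1416344_at, read 9.41 and 9.20 in WT and 9.54 in Foxo1AAA. The 7 tested myeloid markers were all higher in this comparison, as were 4 of 6 B cell markers and 5 of 5 proliferation markers, and their part in these differences was not tested.

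In Foxo1KO/Foxo1AAA against WT, Bnip3, Lamp2 and Pik3c3 were higher and Atg9a lower, 12.9% against 30.7% of all genes tested (17% higher, 13.7% lower). Pik3c3 differed by 0.44 (SE 0.12, adjusted p = 0.0257) and Atg9a by -0.42 (SE 0.12, adjusted p = 0.0265). Pik3c3 was not called without WT replicate 2 (adjusted p = 0.0807), nor Atg9a without WT replicate 1 (adjusted p = 0.0922). Nor was Pik3c3 called with centred arrays (0.23, adjusted p = 0.116) or after quantile normalization (0.28, adjusted p = 0.0813). With centred arrays the split was 2 higher (Bnip3 and Lamp2) and 7 lower (Atg9a, Fbxo32, Nbr1, Rb1cc1, Tfeb, Wdr45 and Wipi2) in place of 3 and 1. Centring lowers the difference of every gene in this comparison by 0.20, and the share of all genes then called is not given here. The same 7 myeloid markers were higher here, as were 4 of 6 B cell markers, 5 of 5 proliferation markers and 3 of 5 CD8 T and NK cell markers (Cd8b1, Eomes and Klrk1), and their part was not tested. Cd8a went the other way, with 7.71 and 7.90 in WT and 7.37 in Foxo1KO/Foxo1AAA.

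**Figure D3:**
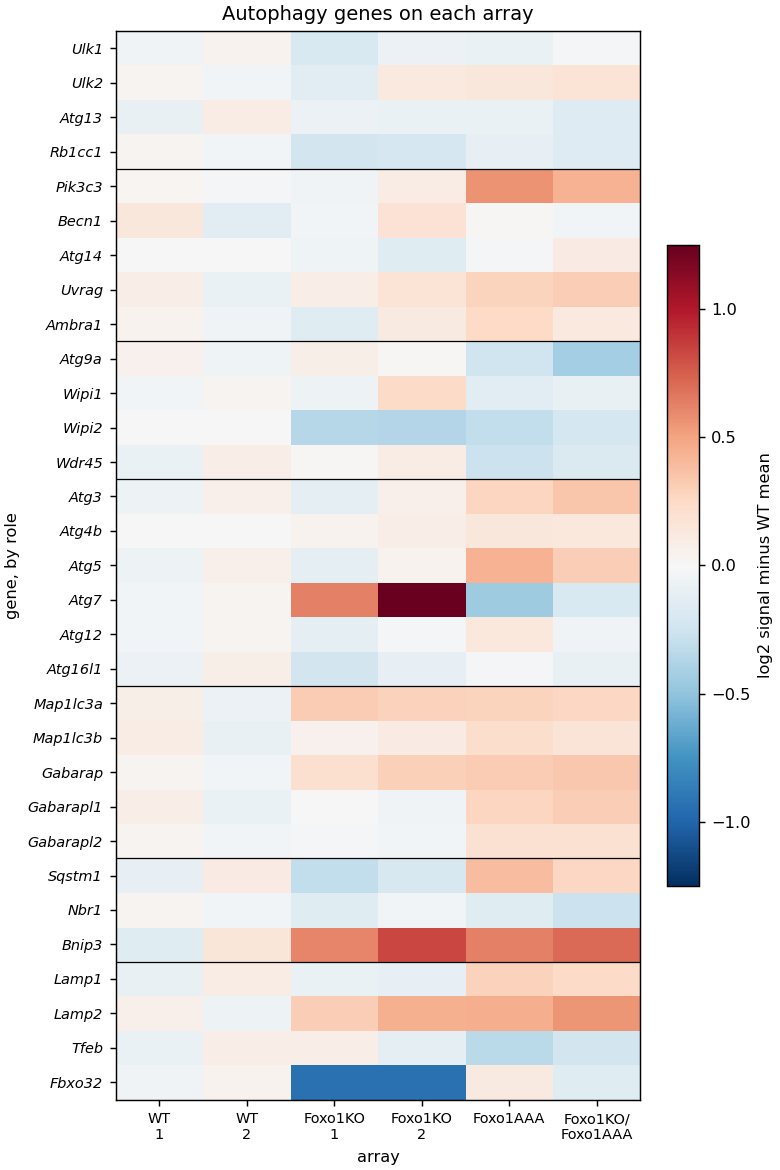
Log2 signal minus the WT mean for the 31 autophagy genes (rows, ordered by role) on the 6 arrays (columns); red is above and blue below the WT mean. Atg7 and Bnip3 are red and Fbxo32 blue in Foxo1KO, and Pik3c3, Atg5 and the Atg8 family rows are red on both arrays with Foxo1AAA, where none of the 5 Atg8 family genes was called against WT (differences of 0.16 to 0.33).

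The knockout could be compared a second time, on arrays that the first comparison did not use, as Foxo1KO/Foxo1AAA against Foxo1AAA. None of the 31 genes was called there by limma, 0 of 31 had an unadjusted p under 0.05, and 0.0733% of all genes tested were called (10% had an unadjusted p under 0.05). With 1 array on each side, the differences ranged from -0.27 for Fbxo32 (SE 0.13, adjusted p = 0.568) to 0.24 for Atg7 (SE 0.24, adjusted p = 0.864). Both had the sign they had in Foxo1KO against WT, at a smaller size. Bnip3 differed by 0.08 (95% interval -0.34 to 0.50), Lamp2 by 0.09 (-0.23 to 0.41) and Wipi2 by 0.09 (-0.21 to 0.38).

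Whether the knockout difference itself depended on Foxo1AAA was tested as an interaction. None of the 31 genes was called by limma, against 5.94% of all genes tested, and 4 of 31 had an unadjusted p under 0.05, against 19.3% of all genes. The 4 were Fbxo32 (0.66, SE 0.16, adjusted p = 0.0501), Bnip3 (-0.65, SE 0.22, adjusted p = 0.150), Wipi2 (0.44, SE 0.16, adjusted p = 0.156) and Atg7 (-0.69, SE 0.30, adjusted p = 0.256). For each the knockout difference was nearer to 0, or of the other sign for Wipi2, with Foxo1AAA than without. The interaction contains the Foxo1KO minus WT difference, so this pattern is partly built into the choice of these 4 and is no further test. Without Foxo1KO replicate 1 Atg7 was called (-0.99, adjusted p = 0.0335), and without WT replicate 2 Bnip3 was (-0.80, adjusted p = 0.0484). Among single probe sets, 4.61% of all were called in this test, and 1 dim probe set of Sqstm1 was.

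**Figure D4:**
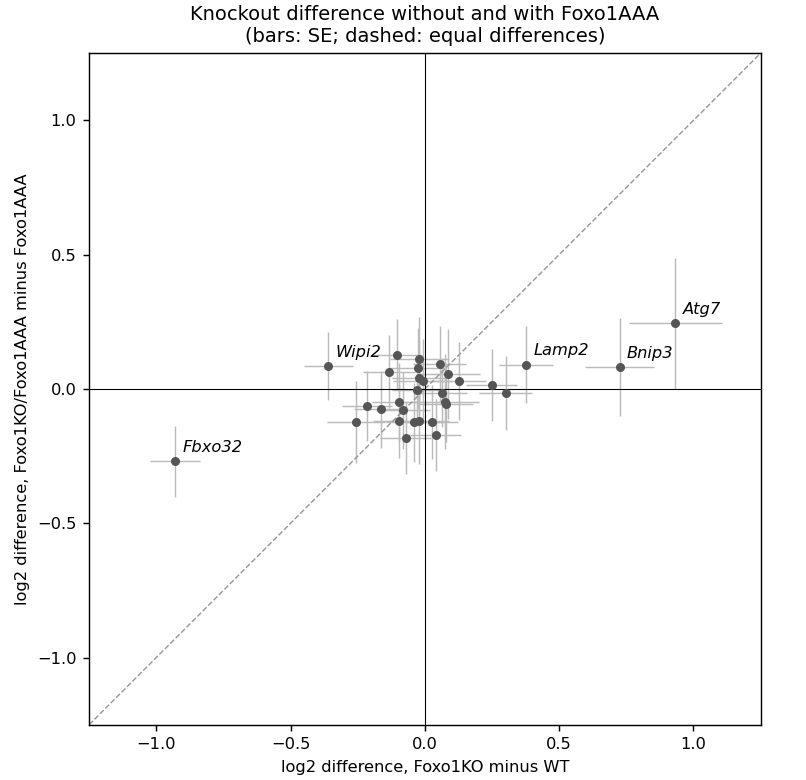
Foxo1 knockout difference in log2 signal without Foxo1AAA (x axis, Foxo1KO minus WT) and with it (y axis, Foxo1KO/Foxo1AAA minus Foxo1AAA) for the 31 autophagy genes; bars are SE and the dashed line marks equal differences. The x values run from -0.93 to 0.93, while the y values run from -0.27 to 0.24.

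Probe sets of one gene did not always move together when Foxo1AAA was present. Of the 31 genes, 23 had more than 1 probe set and 21 more than 1 that passed the filter. In Foxo1KO against WT, 0 of these 21 had probe sets called in both directions, and in Foxo1AAA against WT, where 28.6% of all probe sets were called, 1 had. That was Wipi2: 1428882_at read 7.22 and 7.36 in WT, 7.08 and 6.90 in Foxo1KO, 7.98 in Foxo1AAA and 8.03 in Foxo1KO/Foxo1AAA (Foxo1AAA minus WT 0.69, SE 0.13, adjusted p = 0.00725), while 1456999_at differed by -0.46 (SE 0.14, adjusted p = 0.0385). The last call was lost without any 1 of WT replicate 2, Foxo1KO replicate 1 or Foxo1KO replicate 2 (adjusted p = 0.158, 0.0618 and 0.0618). Among Lamp2 probe sets the Foxo1AAA minus WT difference ran from 0.03 to 1.06. Which of them follows the transcript was not tested.

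**Figure D5:**
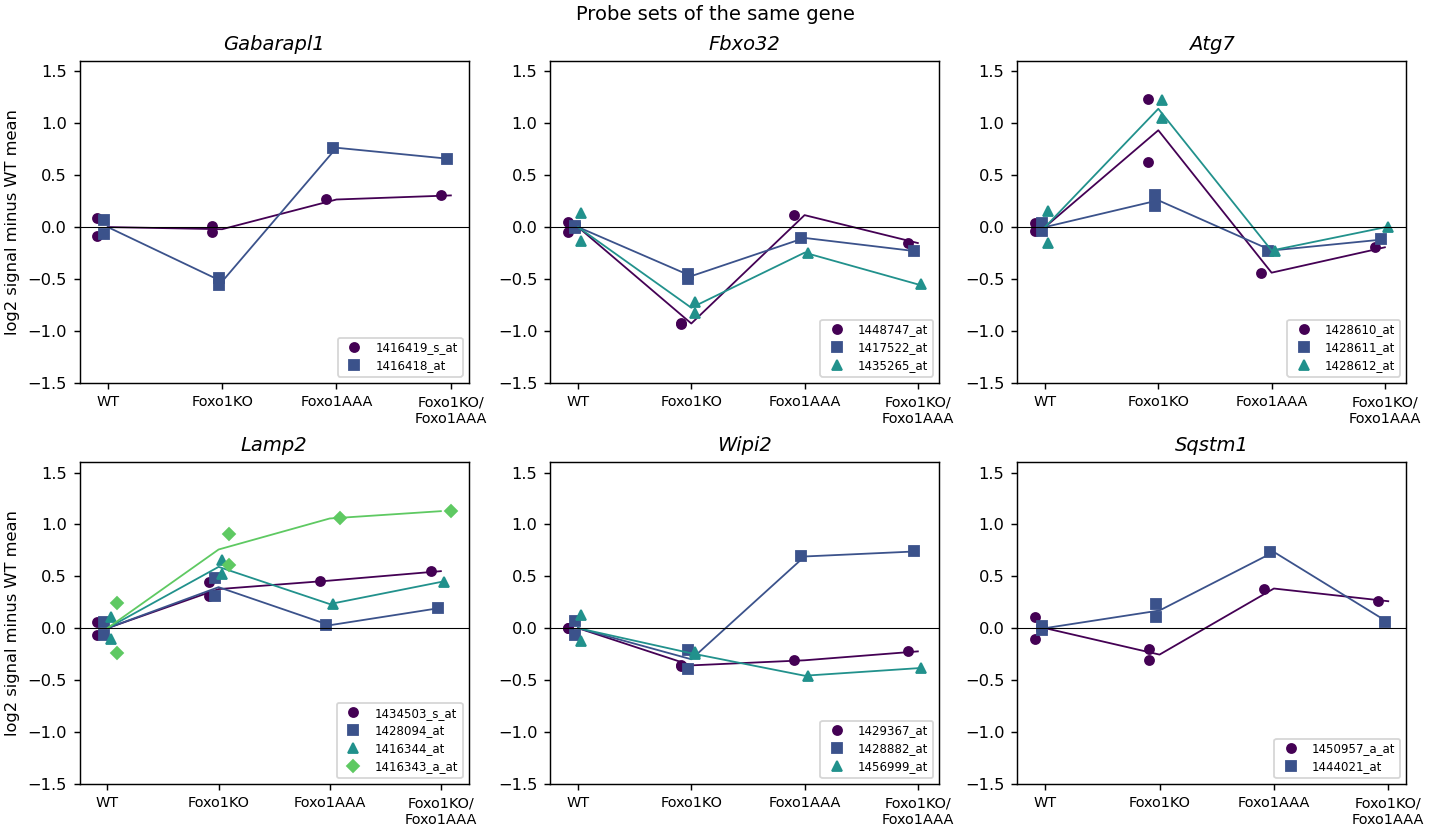
Log2 signal minus the WT mean for every tested probe set of 6 autophagy genes across the 4 groups; points are arrays, lines join group means and each colour is 1 probe set. The Gabarapl1 probe sets part in Foxo1KO (-0.02 and -0.52), the 3 of Fbxo32 all lie below 0 there, and 1 of Wipi2 rises to 0.69 in Foxo1AAA while the other 2 are below 0.

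In the knockout, the wider pathway was called about as often as all genes were. Of 99 further symbols (other core genes, receptors, fusion factors, lysosome enzymes and upstream control), 95 were measured and 93 tested. In Foxo1KO against WT, 11 were higher and 10 lower, or 22.6% against the 21.8% of all genes. Of the other core genes, receptors and fusion factors, only Vmp1, Retreg1, Snap29 and Tecpr1 were called. All other called genes were lysosome or upstream control genes. The 3 with the smallest adjusted p on each side are given here. Ctsa, a lysosomal carboxypeptidase, rose by 0.82 (SE 0.10, adjusted p = 3.9e-04), Vmp1, a membrane scramblase needed for autophagosomes to form, by 0.69 (SE 0.09, adjusted p = 8.1e-04), and Gla, a lysosomal galactosidase, by 0.65 (SE 0.09, adjusted p = 0.00115). Sesn1, a stress protein that restrains mTORC1, fell, with a difference of -1.95 (SE 0.09, adjusted p = 4.4e-06). So did Bcl2, which can hold Beclin 1 inactive (-1.51, SE 0.10, adjusted p = 2.2e-05), and Tecpr1, a factor of fusion with lysosomes (-0.72, SE 0.09, adjusted p = 6.6e-04). The count of 21 fell to 12 without Foxo1KO replicate 1 and to 13 without Foxo1KO replicate 2.

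Lysosome genes of that list numbered 27 tested. In Foxo1KO against WT, 7 of them were higher and 2 (Ctsl and Hexa) lower, or 33.3% against 21.8% of all genes. In Foxo1KO/Foxo1AAA against Foxo1KO, 11 were higher and 2 (Ctsa and Atp6v0a1) lower, or 48.1% against 39.8%. In Foxo1AAA against WT, 12 were higher and 0 lower, or 44.4% against 27.5%. In Foxo1KO/Foxo1AAA against WT, 12 were higher and 1 (Atp6v0a1) lower, or 48.1% against 30.7%. The 7 myeloid markers were higher in all 3 comparisons with Foxo1AAA arrays, and their part in these counts was not tested. Over all 93 genes, the share called was 28% in Foxo1KO/Foxo1AAA against Foxo1KO (22 higher, 4 lower, with 39.8% of all genes called), 18.3% in Foxo1AAA against WT (16 higher, 1 lower, with 27.5% called) and 28% in Foxo1KO/Foxo1AAA against WT (19 higher, 7 lower, with 30.7% called). The count for Foxo1KO/Foxo1AAA against WT was 17 without WT replicate 2.

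Genes known to be induced by FOXO factors in muscle were a list of 10 symbols, of which 9 were measured, all 9 of them among the 31. In Foxo1KO against WT, 1 rose (Bnip3), 1 fell (Fbxo32) and 7 were not called. That is 22.2% of the 9, against 21.8% of all genes tested. Leaving this list out, 3 of the other 22 genes were called (13.6%). These counts rest on the chosen probe set of each gene. Gabarapl1 was not called on that one, but its dimmer probe set was called lower (-0.52, with 21.3% of all probe sets called).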

How the data were processed

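Sorted Treg cells were measured on 6 Affymetrix arrays. The deposited values are log2 signals made with RMA (R 2.15, limma 3.12.1), per the submitters' processing notes; probe-level values were not used here. RMA's quantile step can hide a shift of most transcripts, and dim or saturated probe sets understate differences. The number of arrays limits the precision.

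Of 45101 probe sets, 34958 were listed with 1 gene, 932 with several and 9211 not listed; the last 2 kinds were left out. The probe set with the highest mean stood for each of 18194 genes, and the lowest 25% by mean were left out, which left 13645 genes with means of at least 5.47. A linear model with 1 mean per group was fitted to these log2 values (limma 3.58.1, R 4.3.3) with moderated variances (2 residual and 6.59 prior degrees of freedom); groups of 1 array borrow the spread of the replicated pairs. Probe sets passing the same minimum (24400) were fitted separately. The fit was tested on simulated data. Values are given on every array for genes called in at least 1 of 6 tests and for the Atg8 family. The members and lists were chosen with earlier results of these data known. Alternatives covered the choice of probe set, filter, prior, scaling, replicate block and single arrays left out; 2 of them (quantile normalization, every probe set) and the probe set refits were chosen after seeing the data.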

Additional observations from a re-analysis of the deposited data

Results flagged for a closer look

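The knockout difference of 1 Sqstm1 probe set depended on Foxo1AAA. The dim probe set 1444021_at read 5.42 and 5.46 in WT, 5.55 and 5.68 in Foxo1KO, 6.18 in Foxo1AAA and 5.50 in Foxo1KO/Foxo1AAA. The interaction was -0.85 (SE 0.17, limma adjusted p = 0.0309 over 24400 probe sets), because the Foxo1AAA array stood above the other 5. It was not called without Foxo1KO replicate 1 (adjusted p = 0.0624) or Foxo1KO replicate 2 (adjusted p = 0.0952). The brighter Sqstm1 probe set had an interaction of 0.13 (SE 0.19, adjusted p = 0.798). No other probe set of the 31 genes was called in this test.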

How the results depend on the processing

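The count of autophagy genes called in Foxo1KO against WT was 5, and 3 to 4 with 1 array left out. The replicate block gave 3 (Lamp2 and Wipi2 lost), on numbers whose deviations correlated at only -0.10 over 2 pairs, so the pairing is not shown. Testing every probe set, the count of genes with a call was 8 here, 13 in Foxo1KO/Foxo1AAA against Foxo1KO (main 6, 2 to 6 with 1 array left out), 11 in Foxo1AAA against WT (main 4, 2 to 5), 10 in Foxo1KO/Foxo1AAA against WT (main 4, 3 to 4) and 1 in the interaction (main 0, 0 to 1). Several probe sets per gene raise such counts, and 21.3%, 38.9%, 28.6%, 32.2% and 4.61% of all probe sets were called in these 5 tests. The mean of all probe sets gave 8 in Foxo1AAA against WT and 7 in Foxo1KO/Foxo1AAA against WT, where centring gave 9. The shares of all genes called under these alternatives are not given here. The interaction had 1 call with probe sets without a suffix first (Sqstm1) and 1 each with the lowest 50% left out, a robust prior or an intensity trend (Fbxo32). Foxo1KO/Foxo1AAA against Foxo1AAA had 0 under every alternative run. Atg7, Bnip3 and Fbxo32 were called in all 14 alternatives of Foxo1KO against WT. Among values called in the main or the alternative setting, signs turned for Atg3 in Foxo1KO/Foxo1AAA against Foxo1KO with the mean of its probe sets (-0.012), and for Sqstm1 with its probe set without a suffix, there (-0.11) and in the interaction (-0.85); the cause is the probe set used. Some values not called in either setting turned too, such as Nbr1 in Foxo1KO/Foxo1AAA against Foxo1KO (-0.17 to 0.19). Over single genes, 526 values kept their side of the threshold, 52 passed it and 35 fell short of it. Signal near background limits the dim probe sets, 1 array limits 2 of the groups, and the number of arrays the rest.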

Other observations

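Some dimmer probe sets of autophagy genes differed while the brightest one of the gene was not called. Becn1 1430358_at read 6.78 and 6.73 in WT, 6.90 and 7.04 in Foxo1KO, 5.85 in Foxo1AAA and 6.03 in Foxo1KO/Foxo1AAA. It was lower in Foxo1KO/Foxo1AAA than in Foxo1KO (difference -0.94, SE 0.13, limma adjusted p = 7.8e-04) and in Foxo1AAA than in WT (-0.91, SE 0.13, adjusted p = 0.00157). Becn1 encodes Beclin 1, and its brightest probe set read 11.52 to 11.85 on all 6 arrays. Nbr1 1451897_a_at, for a cargo receptor related to p62, read 6.87 and 7.08 in WT, 6.63 and 6.51 in Foxo1KO, 7.46 in Foxo1AAA and 7.12 in Foxo1KO/Foxo1AAA. Its Foxo1KO minus WT difference was -0.40 (SE 0.11, adjusted p = 0.0337), lost without WT replicate 2 (adjusted p = 0.186) or either Foxo1KO replicate (0.0789 and 0.165). Its Foxo1KO/Foxo1AAA minus Foxo1KO difference was 0.54 (SE 0.14, adjusted p = 0.0140), lost without Foxo1KO replicate 2 (adjusted p = 0.0598). Atg12 1451746_a_at, for the ubiquitin-like protein joined to Atg5, read 6.88 and 6.92 in WT, 7.19 and 7.23 in Foxo1KO, 7.48 in Foxo1AAA and 7.68 in Foxo1KO/Foxo1AAA. It was 0.79 higher in Foxo1KO/Foxo1AAA than in WT (SE 0.12, adjusted p = 0.00182). Of Ulk2, the second ULK kinase, 1439591_at was lower in Foxo1KO/Foxo1AAA than in Foxo1KO (-0.38, SE 0.13, adjusted p = 0.0401) and 1448858_at higher (0.44, SE 0.12, adjusted p = 0.0232). Both calls were lost without Foxo1KO replicate 1 (adjusted p = 0.0759 and 0.0888), and the first also without Foxo1KO replicate 2 (adjusted p = 0.115). The myeloid markers that rose on the arrays with Foxo1AAA stand beside these values too, and their part was not tested.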
